A study of Spongilla lacustris with 18 samples.

Results

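The vehicle arm of a tryptamine experiment on juvenile freshwater sponges (Spongilla lacustris) was compared between the end of exposure and the day after washout. The comparison set the 3 DMSO recovery libraries (0.03% DMSO for 4 h, washed out and left for 24 h) against the 3 DMSO 4 h libraries (0.03% DMSO for 4 h), and so used 6 of the 18 libraries of the series. The libraries were taken by their labels alone. All sponges were wild type and had been kept at 18 °C, with 9 days of growth in M-medium. Whole bodies were extracted and polyA RNA was sequenced. The other libraries came from sponges sampled after 1 h in 0.03% DMSO and from sponges given 37.5 µM tryptamine for the same times, 3 libraries in each group. Recovery sponges were older than 4 h sponges by the recovery day, had been washed and were no longer in DMSO, and no untreated group was analysed here, so age, washout, handling and the removal of the vehicle cannot be told apart. The labels do not say whether replicates came from separate cultures, so p-values measure the spread between these libraries, which may be technical.

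Freshwater sponges have no nerves or muscles. They draw water through chambers of flagellated choanocytes, build a skeleton of silica spicules bound with collagen and chitin, and renew their cells from archaeocytes, which are motile stem cells. Their genomes hold relatives of the vertebrate genes that detect foreign RNA, pass on NF-kappa-B and cell death signals and mark proteins with ubiquitin. Gene names below are those in the deposited table and state likeness to a vertebrate relative, not identity; several genes of 1 name can be copies or fragments of 1 gene, above all where they share a component number such as c94017. In whole animals, fewer cells of a type and less RNA per cell cannot be told apart.

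The 6 libraries held 11379345 to 15798197 counted read pairs, with 30822 to 32306 genes detected and 5.29% to 6.16% of them in the 10 most abundant genes. Scaling factors were 0.994 to 1.08 in the recovery libraries and 0.880 to 0.980 in the 4 h libraries. The first principal component, with 48.7% of the variance, placed recovery libraries at -55.0 to -38.0 and 4 h libraries at 33.9 to 67.4, with 4 h replicate 2 at the far end. Members of the axoneme list, used as choanocyte markers, summed to 2661 to 3025 CPM (counts scaled to library size) in recovery libraries and 2727 to 3050 CPM in 4 h libraries. Archaeocyte markers summed to 2413 to 2644 CPM in recovery libraries and 2748 to 2755 CPM in 4 h libraries. These ranges did not overlap, as held for 27.7% of single genes tested. The DMSO 1 h libraries were above both, at 2882 to 3176 CPM. Contractile markers summed to 15329 to 17879 CPM in recovery libraries and 17301 to 19260 CPM in 4 h libraries. No list member that was tested was at 0 in all 6 libraries, no gene was named silicatein, the spicule enzyme, and no gene of the algal and bacterial photosynthesis list was in the table.

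More genes were lower after recovery than higher, and the falls were larger. Of 24125 tested genes, 612 rose (2.54%) and 1044 fell (4.33%) in DMSO recovery sponges relative to DMSO 4 h sponges by edgeR's quasi-likelihood test at an adjusted p under 0.05, which is 6.86% in either direction. Among genes that fell, 698 passed 2-fold and 275 passed 4-fold; among genes that rose, 209 passed 2-fold and 32 passed 4-fold. The recovery and 4 h libraries did not overlap for 1632 of the 1656 genes called, against 27.7% of all genes tested. Calls and overlap were taken from the same libraries, so this is no separate support for the calls. Of the tested genes with a usable name, 294 rose (3.27%) and 399 fell (4.44%), and 230 of the falls past 4-fold and all 32 of the rises past 4-fold were in unnamed genes. The counts leaned on single libraries: without 4 h replicate 2, 172 genes rose and 529 fell; without recovery replicate 1, 199 rose and 509 fell; without recovery replicate 2, 295 rose and 606 fell; without recovery replicate 3, 361 rose and 666 fell. Of the 102 genes named by rule, 58 lost their call without some single library, 55 of them without 4 h replicate 2. Where such a gene is described, the loss is given beside its values. For genes outside the 102, loss of this call is not given gene by gene. The rule required groups that did not overlap, so for the 102 genes that trait was fixed by the choice.

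**Figure D1:**
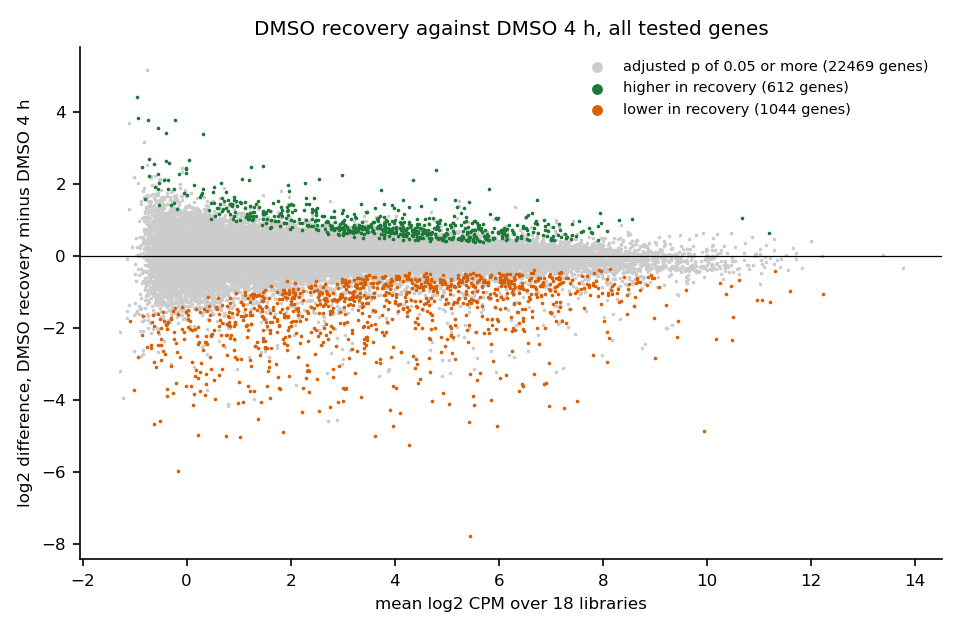
Log2 difference between DMSO recovery and DMSO 4 h (vertical axis) against mean log2 CPM over the 18 libraries (horizontal axis), 1 point per tested gene, coloured by the edgeR call. The 1044 genes that fell reach much farther from 0 than the 612 that rose.

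Levels at 1 h set these changes in time. The comparisons with 1 h share libraries with the main one, so their values are only set side by side. The genes that fell had a median log2 difference of -1.30 for recovery minus 4 h, -0.36 for recovery minus 1 h and 0.88 for 4 h minus 1 h, against 0.01, 0.02 and 0.01 over all tested genes. The genes that rose had medians of 0.83, 0.26 and -0.55 for the same differences. Of all tested genes, 63 were higher (0.261%) and 66 lower (0.274%) in recovery against 1 h, while 678 were higher (2.81%) and 253 lower (1.05%) at 4 h against 1 h.

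Among relatives of the genes that detect foreign RNA and act on it, falls outnumbered rises after recovery. In the list of RNA sensing and interferon-type effectors, 12 of 73 tested members fell (16.4%) and 1 rose (1.37%), against 4.33% and 2.54% of all genes, with a median log2 difference of -0.29 beside 0.01 over all genes. Without the genes named RNF213, chosen for omission after their values were seen, 5 of 52 fell (9.62%) and 1 rose (1.92%), with a median of -0.25. In the full list, with the RNF213 genes, omission of any 1 library left 10 to 13 falls. No such range is given for the list without them.

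RNF213, a very large ubiquitin ligase that restricts viruses and bacteria in mammals, names 33 genes in the table, of which 21 were tested. The longest of the 7 that fell, c107702-g1 (19703 bases), had 13.4, 9.14 and 11.6 CPM in recovery libraries, against 48.3, 132 and 140 CPM in 4 h libraries. At 1 h it had 6.15, 5.28 and 5.93 CPM. Of the 4 h libraries, replicate 1 was the lowest. The log2 difference was -3.23 ± 0.36 (SE; edgeR adjusted p = 0.000109). The other 6 fell by log2 differences of -3.38 to -4.12, and all of them are short sequences of 349 to 924 bases. Other long RNF213 genes gave no call: c102358-g1 averaged 181 CPM in recovery libraries and 201 CPM in 4 h libraries, and c103788-g2 averaged 141 CPM in recovery libraries and 127 CPM in 4 h libraries.

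RSAD2, or viperin, which makes a chain-terminating nucleotide against viruses in vertebrates, had 1.43, 2.10 and 2.36 CPM in recovery libraries, against 6.20, 11.5 and 11.3 CPM in 4 h libraries. The log2 difference was -2.29 ± 0.31 (SE; edgeR adjusted p = 0.000234). The sequence is short (303 bases) and its counts are low. IFIH1, a sensor of double-stranded RNA, names 4 tested genes, and 3 fell: c93646-g1 to 15.9 ± 2.56 CPM in recovery libraries, against 35.2 ± 7.29 CPM at 4 h, c101586-g1 to 25.8 ± 1.05 CPM, against 46.0 ± 10.4 CPM at 4 h, and c95910-g1 to 2.19 CPM, against 5.36 CPM at 4 h (SD, n = 3 each). DHX58, a regulator of the same sensors, fell to 7.78 ± 2.07 CPM in recovery libraries, against 18.1 ± 5.28 CPM in 4 h libraries (edgeR adjusted p = 0.00983).

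OAS1, an oligoadenylate synthase that arms an RNA-cutting enzyme in vertebrates, was the single member of that list to rise. It had 45.2, 25.5 and 43.1 CPM in recovery libraries, against 19.9, 12.5 and 14.8 CPM in 4 h libraries, and passed at log2 1.27 ± 0.35 (SE; edgeR adjusted p = 0.0361). It had 10.0, 6.45 and 8.16 CPM at 1 h, below every library of the later times, and its recovery level also passed against 1 h (log2 2.21, edgeR adjusted p = 0.0167). The edgeR call against 4 h was lost without 4 h replicate 2 (adjusted p = 0.158), 4 h replicate 3 (0.101), recovery replicate 1 (0.131) or recovery replicate 3 (0.110).

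Among 87 tested genes of Toll, NF-kappa-B and cell death signalling, 12 fell and 3 rose (13.8% and 3.45%, against 4.33% and 2.54% of all genes), with a median of -0.07. Adaptors and caspases made up most of the falls. TRAF2, an adaptor that links TNF-type receptors to NF-kappa-B, names 3 tested genes and all fell. The most strongly changed, c104149-g1, had 469, 362 and 457 CPM in recovery libraries, against 1171, 2652 and 2252 CPM in 4 h libraries. The difference was -2.24 ± 0.31 on the log2 scale (SE; edgeR adjusted p = 0.000566). Over all TRAF-named genes, 6 of 27 fell and 0 rose.

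A gene named CASP10,CASP8, like the caspases that start receptor-driven cell death, fell to 152 ± 27.8 CPM in recovery libraries, against 413 ± 133 CPM in 4 h libraries (SD, n = 3 each; edgeR adjusted p = 0.00478). The CASP2,CASP1 gene had 27.1, 26.0 and 30.6 CPM in recovery libraries, against 42.4, 79.0 and 80.5 CPM in 4 h libraries, with a log2 difference of -1.27 (edgeR adjusted p = 0.000316). BAK1, which opens the mitochondrial outer membrane in dying cells, names 3 tested genes; c95892-g1 and c102112-g1 fell by log2 differences of -0.99 and -0.66. NFKB1,NFKB2, the transcription factor of the pathway, fell by 0.43 on the log2 scale. The rises were both tested SARM1 genes, which in other animals break down NAD, at log2 1.10 and 0.98, and TBK1,IKBKE, a kinase of the RNA-sensing pathway, at 0.49. The edgeR call of SARM1 c90126-g1 was lost without 4 h replicate 2 (adjusted p = 0.0543), and that of TBK1,IKBKE without 4 h replicate 2 or 3 or recovery replicate 2 or 3 (0.0597 to 0.0857). Leaving out 1 library gave 6 to 12 falls and 0 to 2 rises, with fewest falls without recovery replicate 3 or 4 h replicate 2 (6 each) and 7 without recovery replicate 2.

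Ubiquitin ligases moved both ways, and the falls were the larger. Of 154 tested members, 15 fell (9.74%) and 5 rose (3.25%), against 4.33% and 2.54% of all genes, with a median of 0.05; 7 of the falls were RNF213 genes, and without that name 8 of 133 fell (6.02%). Leaving out 1 library gave 11 to 19 falls and 1 to 7 rises, with 1 rise without 4 h replicate 2 and 2 or 3 without 4 h replicate 3 or any 1 of the recovery libraries. The synoviolin gene (c97836-g1), named after the ligase that clears misfolded proteins from the endoplasmic reticulum, had 150, 93.2 and 178 CPM in recovery libraries, against 551, 1662 and 1035 CPM in 4 h libraries. The log2 difference was -2.95 ± 0.32 (SE; edgeR adjusted p = 8.99e-05). TRIM2, a ligase of the tripartite motif family, had 34.8, 18.4 and 37.9 CPM at c87469-g1 in recovery libraries, against 181, 658 and 382 CPM in 4 h libraries (log2 -3.74, edgeR adjusted p = 0.000712). Another gene of that name, c95684-g1, went the other way, at 23.2, 22.7 and 23.8 CPM in recovery libraries, against 16.6, 13.1 and 12.3 CPM in 4 h libraries (log2 0.73, edgeR adjusted p = 0.0126), and lost its call without 4 h replicate 2 (0.0623) or 4 h replicate 3 (0.0528). CUL9, a cullin scaffold of ubiquitin ligases, names 2 tested genes. Of these, c80372-g1 fell to 25.5 ± 5.90 CPM in recovery libraries, against 120 ± 45.6 CPM in 4 h libraries.

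NUP98, part of the nuclear pore, names 2 genes that share the component number c103700 and so can be copies or fragments of 1 gene. Both fell, c103700-g2 to 99.3 ± 9.25 CPM in recovery libraries, against 249 ± 88.3 CPM in 4 h libraries (SD, n = 3 each).

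**Figure D2:**
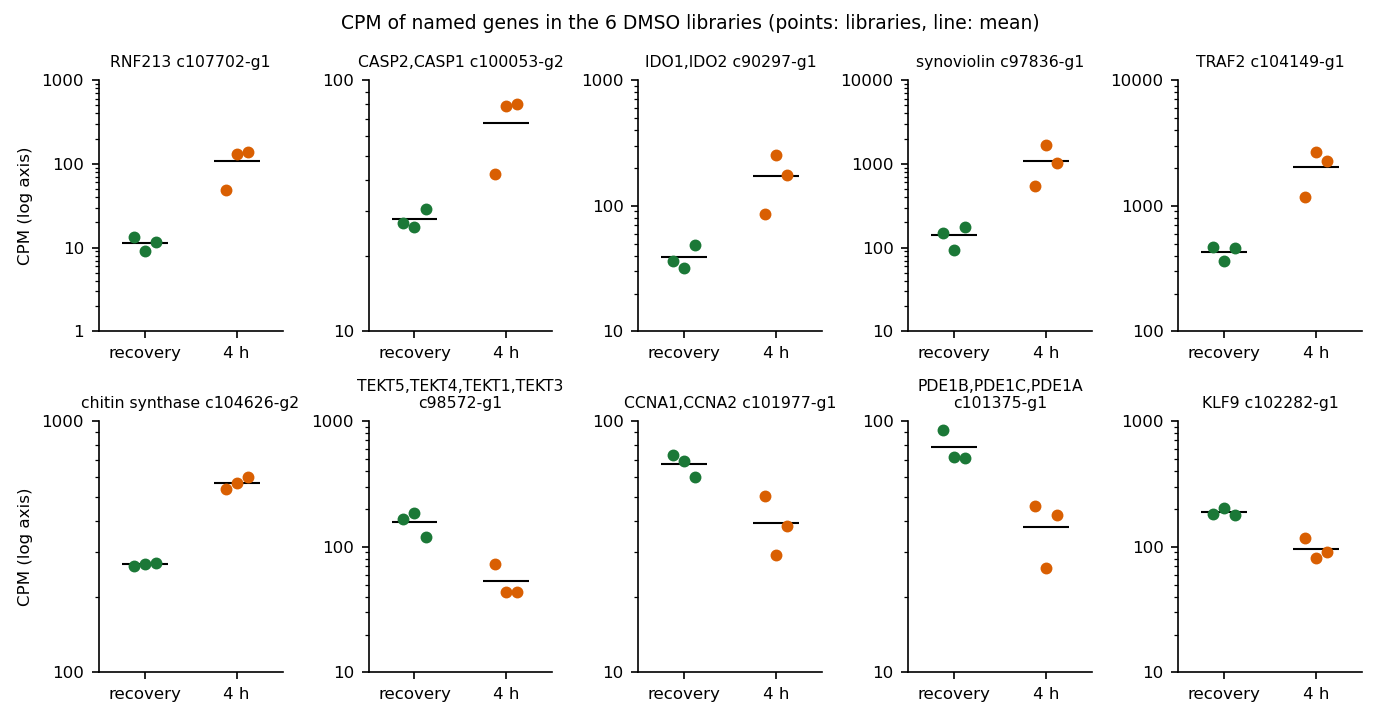
CPM on a log axis in each DMSO recovery and DMSO 4 h library (points) with the mean (line) for 10 named genes. The first 6 are lower in recovery, and TEKT5,TEKT4,TEKT1,TEKT3, CCNA1,CCNA2, PDE1B,PDE1C,PDE1A and KLF9 are higher. The groups do not overlap, which the naming rule required of the genes it named.

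Some genes that handle monoamines or tryptophan also changed in these vehicle sponges. Tryptophan and its amines are the chemical family of the compound given in the other arm. The monoamine list is not limited to that family. Of 40 tested members of the monoamine list, 5 fell (12.5%) and 1 rose (2.50%), against 4.33% and 2.54% of all genes. IDO1,IDO2, the enzyme that opens the tryptophan ring, names 3 genes. One of them, c80379-g2, had 12.3, 8.49 and 15.2 CPM in recovery libraries, against 107, 216 and 207 CPM in 4 h libraries (log2 -3.88 ± 0.62, SE; edgeR adjusted p = 0.0026). Another, c90297-g1, had 36.4, 32.2 and 48.7 CPM in recovery libraries, against 85.2, 253 and 176 CPM in 4 h libraries (log2 -2.13, edgeR adjusted p = 0.00157). The third, c85274-g1, averaged 7.12 CPM in recovery libraries and 4.93 CPM in 4 h libraries and did not pass.

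An amine oxidase, which breaks down amines, fell to 10.2 ± 3.79 CPM in recovery libraries, against 25.6 ± 3.72 CPM in 4 h libraries (SD, n = 3 each; edgeR adjusted p = 0.00196). ASMT,ASMTL, after the enzyme of the last step of melatonin synthesis, names 2 tested genes. Of these, c100382-g1 had 21.2, 29.4 and 21.7 CPM in recovery libraries, against 55.2, 61.2 and 47.1 CPM in 4 h libraries (log2 -1.18, edgeR adjusted p = 0.00078). A transporter like the amino acid carriers SLC6A19, SLC6A18 and SLC6A20 fell by 0.60 on the log2 scale. PNMT, a methyltransferase of adrenaline synthesis in vertebrates, names 6 tested genes. Of these, c102080-g1 was the one list member that rose, with 108, 101 and 80.6 CPM in recovery libraries, against 72.4, 71.3 and 53.5 CPM in 4 h libraries (log2 0.55, edgeR adjusted p = 0.0319). Its edgeR call was lost without 4 h replicate 2 or 3 or recovery replicate 1 or 2 (adjusted p of 0.0653 to 0.156). WARS, which charges tRNA with tryptophan, names 2 tested genes. One of them, c103838-g4, had 12.1, 9.22 and 17.4 CPM in recovery libraries, against 22.9, 57.5 and 40.9 CPM in 4 h libraries (log2 -1.64, edgeR adjusted p = 0.00955). The other had a log2 difference of -0.18 and did not pass. In edgeR, the call of WARS c103838-g4 was lost without 4 h replicate 2 (adjusted p = 0.0571), recovery replicate 1 (0.0527) or recovery replicate 2 (0.0516).

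The edgeR calls among skeleton and matrix genes were falls. The sclerocyte and skeleton list holds collagens, chitin synthases, bicarbonate transporters and cathepsin L. Of its 40 tested members, 13 fell (32.5%), against 4.33% of all genes, and the median was -0.43. The members that fell were 7 chitin synthase genes and 6 collagen genes, 2 of them named COL4A5; both families make organic material and not the silica of spicules. The summed level of the list was 4446 to 5473 CPM in recovery libraries and 8082 to 9984 CPM in 4 h libraries, with no overlap. The collagen COL24A1, with values given below, made up much of that sum in both groups. Chitin synthase names 15 tested genes. The 7 that fell share component numbers, such as c104626, and so can be fragments of fewer genes. The longest that fell, c104626-g2 (6287 bases), had 264, 270 and 272 CPM in recovery libraries, against 538, 564 and 599 CPM in 4 h libraries. The replicates were tight in both groups, and the log2 difference was -1.08 ± 0.20 (SE; edgeR adjusted p = 0.00251). The short c104626-g6 changed more, to 6.30 ± 0.991 CPM in recovery libraries, against 31.9 ± 6.59 CPM in 4 h libraries (SD, n = 3 each).

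In the extracellular matrix list, which shares the collagens with the skeleton list, 14 of 88 tested members fell (15.9%), against 4.33% of all genes. The median of the matrix list was -0.14. COL24A1, a fibril-type collagen, had 2322, 2963 and 1856 CPM in recovery libraries, against 4279, 6283 and 4132 CPM in 4 h libraries. It had 5878, 5363 and 4407 CPM at 1 h. Recovery libraries lay below all others, and the log2 difference from 4 h was -1.04 ± 0.27 (SE; edgeR adjusted p = 0.0238). ADAMTSL1, a secreted matrix protein, fell to 677 ± 143 CPM in recovery libraries, against 1400 ± 305 CPM in 4 h libraries. COL4A5, a basement membrane collagen, fell at 2 genes by 0.86 and 0.77 on the log2 scale, and the collagen-modifying PLOD1,PLOD3,PLOD2 by 0.62. Collagen-named members alone had a median of -0.38 for recovery minus 4 h, -0.40 for recovery minus 1 h and -0.02 for 4 h minus 1 h. Leaving out 1 library gave 5 to 13 matrix falls, with 5 without recovery replicate 1 and 6 without recovery replicate 3 or 4 h replicate 2, and 0 matrix rises, other than 2 without 4 h replicate 1. The skeleton list gave 8 to 13 falls, with 8 without recovery replicate 1. With the replicate block there were 5 matrix rises.

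Among receptors at the cell surface, 13 of 87 tested G protein-coupled receptors fell (14.9%) and 2 rose (2.30%). Over all genes 4.33% fell and 2.54% rose. The median of the receptors stayed at 0.01. The name of the GABA-B receptor, the slow receptor for an inhibitory transmitter in animals with nerves, is carried by 26 tested genes, of which 7 fell and 1 rose. The gene c104641-g1 had 32.1, 28.1 and 34.0 CPM in recovery libraries, against 64.4, 122 and 131 CPM in 4 h libraries (log2 -1.75 ± 0.24, SE; edgeR adjusted p = 0.000265). The gene c98465-g1 had 28.2, 22.8 and 22.5 CPM in recovery libraries, against 17.1, 10.9 and 14.1 CPM in 4 h libraries (log2 0.80, edgeR adjusted p = 0.0422), a call lost without any 1 library other than 4 h replicate 1 (0.0736 to 0.199). Adhesion receptors were found on both sides. ADGRB3,ADGRB2 fell to 3.79 ± 0.260 CPM in recovery libraries, against 22.3 ± 3.97 CPM in 4 h libraries, and ADGRL3 by 0.94 on the log2 scale. LGR6,LGR4, like the receptors for Wnt-enhancing R-spondins, fell by 1.41. ADGRA2 rose by 1.05 on the log2 scale, a call lost without 4 h replicate 2 (edgeR adjusted p = 0.0891). Omission of 1 library gave 8 to 12 falls, with 8 without recovery replicate 2, and 0 to 3 rises, with 0 without 4 h replicate 2 and 1 without 4 h replicate 3 or any 1 of the recovery libraries.

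Messengers downstream of receptors moved in both directions. Of 49 tested members of the nitric oxide and cyclic nucleotide list, 6 rose (12.2%) and 4 fell (8.16%). Over all genes 2.54% rose and 4.33% fell. Nitric oxide synthase (NOS3,NOS2,NOS1) had 467, 414 and 419 CPM in recovery libraries, against 585, 613 and 780 CPM in 4 h libraries (log2 -0.61, edgeR adjusted p = 0.00999). GUCY1B3, a subunit of the cyclase that nitric oxide activates, had 236, 192 and 213 CPM in recovery libraries, against 330, 440 and 522 CPM in 4 h libraries (log2 -1.01 ± 0.18, SE; edgeR adjusted p = 0.00206). In both genes all recovery libraries were below all 4 h libraries, which the naming rule required of GUCY1B3. The cyclic AMP hydrolase PDE4B,PDE4D,PDE4C,PDE4A and the cyclic GMP hydrolase PDE9A fell by 0.66 and 0.67.

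Of the 6 rises, 5 were genes with PDE1, ADCY9 and RAPGEF names, and the sixth was a guanylate cyclase, which makes cyclic GMP (log2 0.73; edgeR adjusted p = 0.0467). PDE1B,PDE1C,PDE1A, a hydrolase switched on by calmodulin, had 92.0, 72.0 and 71.4 CPM in recovery libraries, against 45.7, 25.9 and 42.3 CPM in 4 h libraries (log2 1.04 ± 0.18, SE; edgeR adjusted p = 0.00166), and a second PDE1 gene rose by 0.59. ADCY9, which makes cyclic AMP, rose to 51.8 ± 6.79 CPM in recovery libraries, against 23.8 ± 9.18 CPM in 4 h libraries. Both RAPGEFL1,RAPGEF5,RAPGEF4,RAPGEF3 genes, exchange factors of which some bind cyclic AMP, rose by 0.51 and 0.48 on the log2 scale, the first no longer without 4 h replicate 2 (edgeR adjusted p = 0.0566). With 1 library left out there were 1 to 5 rises, with 1 without 4 h replicate 2 and 2 without any 1 of the recovery libraries, and 2 to 4 falls, with 2 without 4 h replicate 3.

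Calcium and ion channel genes were near the background, with 3 rises (3.49%) and 4 falls (4.65%) among 86 tested members. Over all genes the shares were 2.54% and 4.33%. NFATC3,NFATC2,NFATC4,NFATC1, a transcription factor activated by calcium, fell to 0.830 ± 0.252 CPM in recovery libraries, against 4.86 ± 2.11 CPM in 4 h libraries; its 1 h libraries averaged 5.27 ± 4.02 CPM. Both DGKD,DGKH,DGKK genes, which remove the second messenger diacylglycerol, fell: c99029-g1 had 36.5, 33.0 and 32.9 CPM in recovery libraries, against 67.6, 94.2 and 108 CPM in 4 h libraries (log2 -1.40, edgeR adjusted p = 0.000361). Of 14 tested TRPA-type channel genes, c104308-g2 and c102145-g2 rose by 0.41 and 0.90 on the log2 scale. The edgeR call of c104308-g2 was lost without any 1 library other than 4 h replicate 3 (adjusted p of 0.0817 to 0.107). When 1 library was omitted there were 0 to 2 rises over the list, with 0 without 4 h replicate 2, recovery replicate 1 or recovery replicate 2 and 1 without 4 h replicate 3 or recovery replicate 3, and 2 to 4 falls, with 2 without recovery replicate 1.

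In the contractile list, 4 of 61 members fell (6.56%) and 1 rose (1.64%), close to the 4.33% and 2.54% of all genes. LMOD1, leiomodin, a starter of actin filaments, fell by 0.66 on the log2 scale. The 4 falls became 0 to 3 without 1 library, with 0 without recovery replicate 2, recovery replicate 3 or 4 h replicate 3 and 1 without recovery replicate 1 or 4 h replicate 2. The single rise became 0 without recovery replicate 1 or 2 or 4 h replicate 2 or 3, and 3 without 4 h replicate 1. In edgeR, the call of LMOD1 was lost without 4 h replicate 3 or recovery replicate 2 or 3 (adjusted p of 0.0611 to 0.0786).

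**Figure D3:**
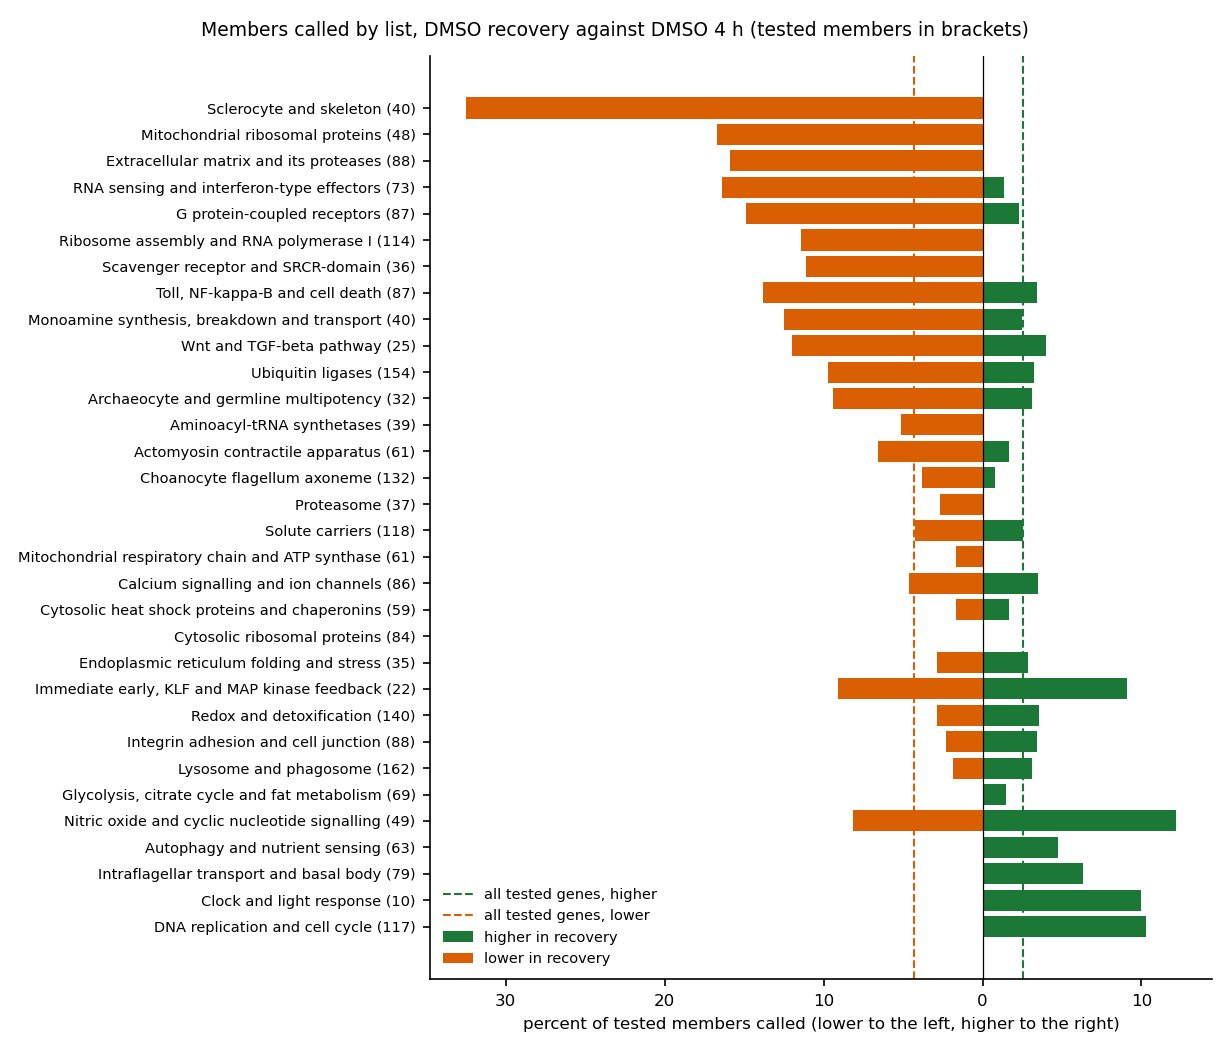
Percent of tested members of each list that fell (bars to the left) or rose (bars to the right) in DMSO recovery against DMSO 4 h, with dashed lines at the 4.33% and 2.54% of all tested genes. The skeleton list stands farthest to the left at 32.5%, and the nitric oxide and cyclic nucleotide list farthest to the right at 12.2%.

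Genes for ribosome assembly and mitochondrial translation had small negative differences spread over most members. In the ribosome assembly and RNA polymerase I list, 13 of 114 fell (11.4%) and 0 rose, against 4.33% and 2.54% of all genes. Of the list, 99 members had a negative difference, against 11874 of 24125 tested genes, and the median was -0.40. BRIX1, an assembly factor of the large subunit, had 29.4, 38.6 and 31.8 CPM in recovery libraries, against 54.9, 67.6 and 40.9 CPM in 4 h libraries (log2 -0.71 ± 0.17, SE; edgeR adjusted p = 0.014). GNL3, a nucleolar GTPase, had 23.8, 31.4 and 31.3 CPM in recovery libraries, against 46.6, 68.8 and 38.0 CPM in 4 h libraries (log2 -0.83, edgeR adjusted p = 0.0145). In both genes 4 h replicate 3 was the library nearest to the recovery group. The edgeR call of BRIX1 was lost without 4 h replicate 2 (adjusted p = 0.102), recovery replicate 1 (0.0832) or recovery replicate 3 (0.0578), and that of GNL3 without 4 h replicate 2 (0.108) or recovery replicate 1 (0.0899).

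These counts depended on single libraries. Without 4 h replicate 2 0 members of the ribosome assembly list fell, without recovery replicate 1 also 0, without recovery replicate 3 only 1, without recovery replicate 2 5 and without 4 h replicate 1 6, while without 4 h replicate 3 the count of ribosome assembly falls was 27. Mitochondrial ribosomal proteins gave 8 falls of 48 (16.7%, against 4.33% of all genes), with a median of -0.33 and 0 rises. MRPS25 had 15.0, 17.0 and 16.2 CPM in recovery libraries, against 30.7, 35.4 and 20.5 CPM in 4 h libraries (log2 -0.84, edgeR adjusted p = 0.00675; 0.0501 without 4 h replicate 2). That list gave 0 falls without 4 h replicate 2, 1 without recovery replicate 3, 2 without recovery replicate 1, 4 without 4 h replicate 1, 5 without recovery replicate 2 and 14 without 4 h replicate 3.

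Cytosolic ribosomal proteins gave 0 calls among 84 in either direction in edgeR. There were 5 falls when 4 h replicate 3 was left out and 19 with the replicate block. A negative difference was found for 79 of these proteins, against 11874 of 24125 tested genes, and the median was -0.33. Their summed level was 26231 to 33808 CPM in recovery libraries and 31780 to 45045 CPM in 4 h libraries, which overlapped. For these 3 lists the medians of recovery minus 1 h were -0.26, -0.31 and -0.33, and those of 4 h minus 1 h were 0.09, 0.04 and 0.01, in the order ribosome assembly, mitochondrial and cytosolic ribosomal proteins. Of 39 aminoacyl-tRNA synthetases, 2 fell (5.13%, near the 4.33% of all genes), WARS among them. HSPD1, the mitochondrial chaperonin, fell to 294, 372 and 303 CPM in recovery libraries, against 564, 757 and 438 CPM in 4 h libraries (log2 -0.86, edgeR adjusted p = 0.0249), a call lost without 4 h replicate 2 (adjusted p = 0.15), recovery replicate 1 (0.113) or recovery replicate 3 (0.0922). The respiratory chain (0 higher and 1 lower of 61) and the proteasome (0 higher and 1 lower of 37) did not exceed the background in calls, though 47 and 34 of their members had a negative difference, with medians of -0.11 and -0.15.

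Every call among cell cycle genes was a rise. The median of the DNA replication and cell cycle list was 0.13. Of its 117 tested members, 12 rose (10.3%) and 0 fell, against 2.54% and 4.33% of all genes. They span the start of replication (ORC2, CDC7), the replication fork (RFC5, POLD1,AC020909.1), the copying of DNA methylation (UHRF2,UHRF1), transcriptional control (E2F4,E2F5) and mitosis (CCNA1,CCNA2, AURKA,AURKC,AURKB, CDC20, TTK, ESPL1, MAD2L2). CCNA1,CCNA2, a cyclin of S phase and mitosis, had 73.1, 69.0 and 60.1 CPM in recovery libraries, against 50.2, 29.2 and 38.3 CPM in 4 h libraries (log2 0.78 ± 0.16, SE; edgeR adjusted p = 0.0068). ORC2, a subunit of the complex that marks replication origins, had 16.2, 18.5 and 14.9 CPM in recovery libraries, against 8.90, 10.3 and 9.39 CPM in 4 h libraries (log2 0.80, edgeR adjusted p = 0.00965; 0.0518 without recovery replicate 2). The groups were separate in each gene, as the naming rule required. The list's medians were -0.12 for recovery minus 1 h and -0.22 for 4 h minus 1 h. The count of 12 became 2 without 4 h replicate 2, 3 without recovery replicate 2, 4 without recovery replicate 1 or 4 h replicate 3, 9 without recovery replicate 3 and 12 without 4 h replicate 1.

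Few genes of basal bodies and flagella were called. In the intraflagellar transport and basal body list 5 of 79 rose (6.33%, against 2.54% of all genes) and 0 fell: ODF2, POC5, CEP120, CEP162 and TUBD1, all parts of centrioles or basal bodies rather than of the transport trains. POC5 had 15.4, 17.0 and 12.8 CPM in recovery libraries, against 10.8, 7.55 and 8.89 CPM in 4 h libraries (log2 0.73, edgeR adjusted p = 0.014). Its call was lost without 4 h replicate 2 or recovery replicate 1 or 2 (edgeR adjusted p of 0.0563 to 0.0914), and that of ODF2 without 4 h replicate 2 or recovery replicate 1 (0.0907 and 0.0980). The count of basal body rises was 1 without 4 h replicate 2, recovery replicate 1 or recovery replicate 2 and 3 without recovery replicate 3. In the axoneme list 1 of 132 rose and 5 fell, near the background, and without any 1 of the recovery libraries or 4 h replicate 2 or 3 the falls were 2 or 3. TEKT5,TEKT4,TEKT1,TEKT3, a tektin filament protein of flagellar microtubules, had 165, 184 and 119 CPM in recovery libraries, against 73.1, 43.3 and 43.7 CPM in 4 h libraries (log2 1.55 ± 0.30, SE; edgeR adjusted p = 0.00498). RSPH14, a radial spoke protein, went the other way, with 5.63, 4.93 and 6.96 CPM in recovery libraries, against 15.8, 34.3 and 42.7 CPM in 4 h libraries (log2 -2.40, edgeR adjusted p = 0.000136). LRGUK, ARMC3 and CFAP206 fell by 0.65, 0.63 and 0.63.

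Genes of archaeocytes and the germline gave 3 falls (9.38%) and 1 rise (3.12%) of 32, against 4.33% and 2.54% of all genes, so the rise was at the background. DDX4, or vasa, an RNA helicase of germ and stem cells, fell to 74.5, 67.0 and 69.5 CPM in recovery libraries, against 86.8, 110 and 113 CPM in 4 h libraries (log2 -0.56, edgeR adjusted p = 0.0163). PRMT5, an arginine methyltransferase that acts on piRNA-pathway proteins, fell by 0.82, and NOG, an antagonist of bone morphogenetic proteins, by 0.83. NANOS1, a translational repressor of stem and germ cells, rose to 66.6, 51.9 and 54.4 CPM in recovery libraries, against 40.1, 24.3 and 31.9 CPM in 4 h libraries (log2 0.84, edgeR adjusted p = 0.0207). Omitting a library gave 0 to 3 falls, with 0 without 4 h replicate 2 and 1 without any 1 of the recovery libraries; the single rise was lost without 4 h replicate 2 or 3 or recovery replicate 1. In edgeR, the call of DDX4 was lost without 4 h replicate 2 or 3 or recovery replicate 2 or 3 (adjusted p of 0.0544 to 0.0735). That of PRMT5 was lost without 4 h replicate 2 or recovery replicate 1 (edgeR adjusted p of 0.0939 and 0.0825), and that of NANOS1 without 4 h replicate 2 or 3 or recovery replicate 1 (0.0556 to 0.118).

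Lysosome genes were near or below the background, with 5 rises (3.09%) and 3 falls (1.85%) of 162, against 2.54% and 4.33% of all genes. TFEC,MITF,TFE3,TFEB, the family of transcription factors that governs lysosomal genes in vertebrates, had 8.33, 8.90 and 9.26 CPM in recovery libraries, against 4.94, 5.47 and 5.65 CPM in 4 h libraries (log2 0.72 ± 0.16, SE; edgeR adjusted p = 0.0117). The acid lipase LIPA,LIPJ,LIPF,LIPK rose to 109 ± 14.9 CPM in recovery libraries, against 64.1 ± 8.62 CPM in 4 h libraries, and LAMP1, a lysosomal membrane protein, to 147 ± 14.8 CPM in recovery libraries, against 108 ± 7.48 CPM in 4 h libraries (SD, n = 3 each). NOX5, a calcium-activated oxidase, rose by 1.05 on the log2 scale. The 3 falls were cathepsin genes, lysosomal proteases, at -0.85, -0.75 and -0.73. Rises numbered 1 without 4 h replicate 2 or recovery replicate 1, 2 without 4 h replicate 3 and 3 without any other library, and falls numbered 1 without 4 h replicate 2 or recovery replicate 2. The edgeR call of NOX5 was lost without 4 h replicate 2 or recovery replicate 1 (adjusted p of 0.0627 and 0.0591), and that of cathepsin c95978-g1 without 4 h replicate 2 or recovery replicate 2 (0.0995 and 0.0677).

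Autophagy genes rose at 3 of 63 members (4.76%, against 2.54% of all genes) and fell at 0 in edgeR; 2 fell without 4 h replicate 1, and 4 fell with DESeq2. MAP1LC3A, the protein that coats autophagosomes, had 22.6, 18.5 and 21.6 CPM in recovery libraries, against 14.7, 11.7 and 11.8 CPM in 4 h libraries (log2 0.72, edgeR adjusted p = 0.0177). FOXO3, a transcription factor active in starvation, had 163, 132 and 141 CPM in recovery libraries, against 99.4, 64.8 and 103 CPM in 4 h libraries (log2 0.71, edgeR adjusted p = 0.03). SQSTM1, an autophagy cargo receptor, rose by 0.41. Without 4 h replicate 2, recovery replicate 1 or recovery replicate 3 there were 0 rises, and without 4 h replicate 3 there was 1. The edgeR adjusted p of MAP1LC3A was then 0.0593 to 0.0901, and that of FOXO3 was 0.0547 to 0.152 without any 1 of the recovery libraries or 4 h replicate 2.

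Regulators of transcription and signalling changed singly. KLF9, a zinc finger factor of the Krüppel family, had 183, 202 and 179 CPM in recovery libraries, against 118, 80.9 and 90.1 CPM in 4 h libraries (log2 0.96 ± 0.16, SE; edgeR adjusted p = 0.00119). KLF10,KLF11, of the same family, had 64.4, 49.7 and 46.7 CPM in recovery libraries, against 74.4, 113 and 98.5 CPM in 4 h libraries (log2 -0.83, edgeR adjusted p = 0.0495). That call was lost in 10 of 17 alternative settings. Among these were the fits without any 1 library other than 4 h replicate 1 (edgeR adjusted p of 0.0665 to 0.212). MKNK2,MKNK1, kinases of the cap-binding factor, rose by 0.73, a call lost without 4 h replicate 2 (edgeR adjusted p = 0.0608), and TRIB2,TRIB1, pseudokinases that steer protein breakdown, fell by 1.07. CLOCK,NPAS2, of the circadian clock, had 43.2, 38.7 and 39.6 CPM in recovery libraries, against 29.7, 27.4 and 27.5 CPM in 4 h libraries (log2 0.52, edgeR adjusted p = 0.0467). That call was lost without any 1 of the 6 libraries (edgeR adjusted p of 0.0723 to 0.166). It was the one call among 10 clock genes (10.0%, where 2.54% of all genes rose). Of these 10 genes, 7 had a negative difference, and the median of the list was -0.20.

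The other lists held 5 or fewer calls in each direction. Scavenger receptors gave 0 rises and 4 falls of 36 (11.1%), Wnt and TGF-beta pathway genes 1 rise (4.00%) and 3 falls (12.0%) of 25, and immediate early and MAP kinase feedback genes 2 of each (9.09%) of 22. Those shares are above the 2.54% and 4.33% of all genes, other than the 0 rises of scavenger receptors, but rest on 4 genes or fewer; without 1 library the falls were 1 to 3, 1 to 2 and 1 to 2 in the same order. The rest were near or below the background. Cytosolic heat shock proteins gave 1 rise and 1 fall of 59, folding genes of the endoplasmic reticulum 1 and 1 of 35, adhesion and junction genes 3 and 2 of 88, and redox and detoxification genes 5 and 4 of 140. Glycolysis, citrate cycle and fat metabolism gave 1 rise and 0 falls of 69, and solute carriers 3 and 5 of 118. Omission of 1 library gave 0 to 5 rises and 0 to 9 falls in each of these lists, and the 9 falls were of heat shock proteins without 4 h replicate 3.

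The 12 largest rises among named genes were smaller than the 12 largest falls. The rises ran from log2 1.22 to 1.59, against -3.13 to -4.12 for the falls. All 7 RNF213 genes that fell are among these 12 falls, and several can be fragments of fewer genes. In edgeR, the fall of TRAF3 c104751-g2 (-3.13) was lost without 4 h replicate 2 or recovery replicate 2 or 3 (adjusted p of 0.0564 to 0.0675). That of a protein phosphatase 1 regulatory subunit (-3.42) was lost without any 1 library (0.0524 to 0.115). Beside tektin and OAS1 the rises held TMTC1, a mannosyltransferase of the endoplasmic reticulum, with 87.7, 65.9 and 49.2 CPM in recovery libraries, against 30.7, 12.7 and 28.6 CPM in 4 h libraries (log2 1.49, edgeR adjusted p = 0.00817). A gene of the RAS family (c98559-g1) had the largest, with 52.4, 43.8 and 29.9 CPM in recovery libraries, against 18.6, 10.3 and 13.1 CPM in 4 h libraries (log2 1.59, edgeR adjusted p = 0.0108). The others were C12orf56 (1.43), the kinase HUNK (1.43), the co-repressor TRIM28,TRIM33 (1.35), the nuclear receptor HNF4A,RXRG,NR2E1,RXRB (1.35), GCR1 (1.32), MTO1 (1.27), which modifies mitochondrial tRNA, a thioredoxin (1.24) and the doublecortin-domain gene DCDC2C (1.22). The edgeR calls of c98559-g1, HUNK, HNF4A,RXRG,NR2E1,RXRB, MTO1, OAS1, thioredoxin and DCDC2C were lost when 4 h replicate 2 was left out (adjusted p of 0.0650, 0.119, 0.0973, 0.0988, 0.158, 0.0901 and 0.104 in that order). HUNK, HNF4A,RXRG,NR2E1,RXRB, MTO1, OAS1 and thioredoxin were also lost without 4 h replicate 3 (0.0514 to 0.101 in edgeR). Without recovery replicate 1, c98559-g1, HUNK, HNF4A,RXRG,NR2E1,RXRB, OAS1 and thioredoxin were lost (0.0527 to 0.138), without recovery replicate 2 MTO1 (0.0986), and without recovery replicate 3 HUNK, OAS1, thioredoxin and DCDC2C (0.0718 to 0.110).

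Levels at 1 h differed in kind between these genes. RNF213 c107702-g1 and RSPH14 stood high at 4 h alone: RSPH14 averaged 6.36 ± 1.17 CPM at 1 h, 31.0 ± 13.8 CPM at 4 h and 5.84 ± 1.03 CPM after recovery (SD, n = 3 each). POC5 stood low at 4 h alone, at 16.5 ± 0.998 CPM at 1 h, 9.08 ± 1.63 CPM at 4 h and 15.1 ± 2.11 CPM after recovery. BRIX1 was at 57.2 ± 9.14 CPM at 1 h, 54.5 ± 13.4 CPM at 4 h and 33.3 ± 4.75 CPM after recovery, so that its low level was that of the recovery libraries. OAS1 was at 8.22 ± 1.80 CPM at 1 h, 15.7 ± 3.79 CPM at 4 h and, its highest, 37.9 ± 10.8 CPM after recovery.

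**Figure D4:**
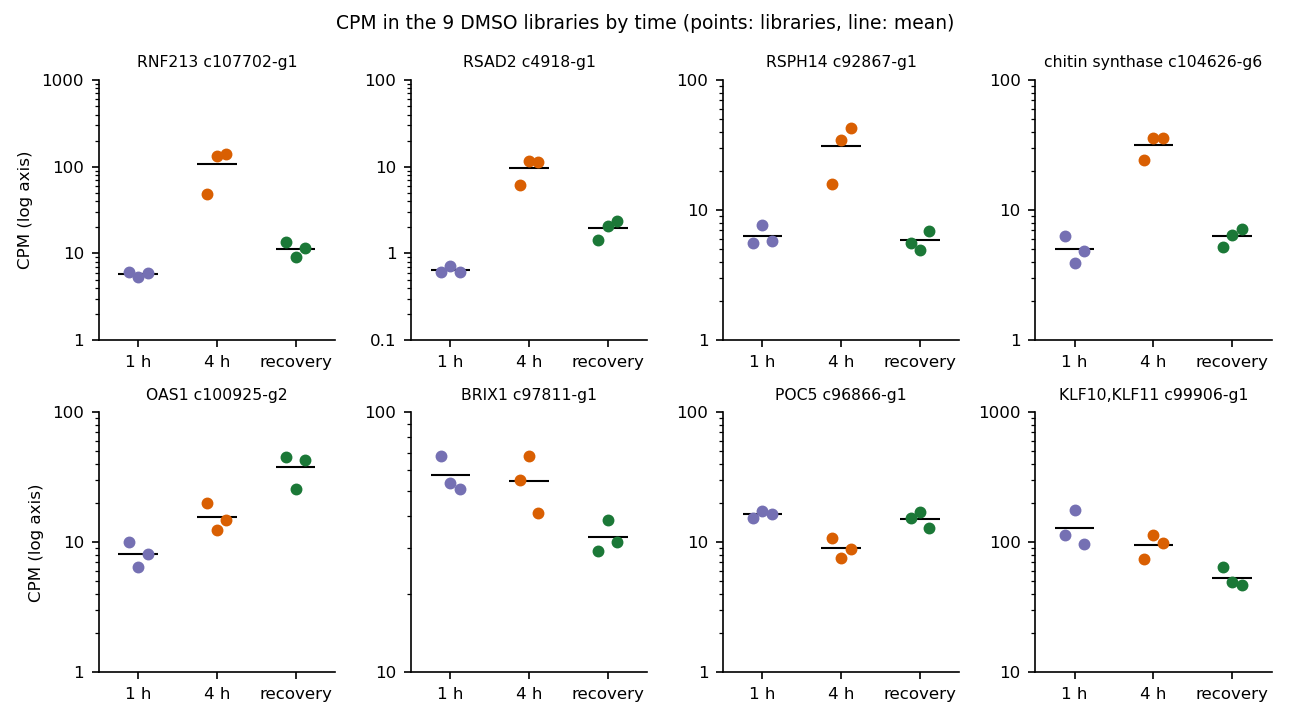
CPM on a log axis in the 9 DMSO libraries at 1 h, 4 h and recovery (points) with the mean (line) for 8 named genes. RNF213 c107702-g1, RSAD2, RSPH14 and chitin synthase c104626-g6 are highest at 4 h, POC5 is lowest at 4 h, and BRIX1 and KLF10,KLF11 are lowest and OAS1 highest after recovery.

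Sponges given tryptamine went through the same 4 h and recovery times, so that the change could be compared between the arms. Tryptamine recovery against tryptamine 4 h gave 337 rises (1.40%) and 832 falls (3.45%). Those counts also leaned on single libraries: they were 34 and 116 without tryptamine 4 h replicate 2, 56 and 140 without tryptamine recovery replicate 2, 96 and 453 without tryptamine 4 h replicate 3, 196 and 639 without tryptamine recovery replicate 1, 283 and 514 without tryptamine recovery replicate 3, and 517 and 1284 without tryptamine 4 h replicate 1. The genes that fell in DMSO had a median of -0.58 in tryptamine sponges, and those that rose had 0.31, against 0.04 over all genes. The difference of changes passed for 23 genes (0.0953%), in each of which the DMSO change was the lower, and for 0 genes in the other direction in edgeR (2674 genes at an unadjusted p under 0.05 in either direction); DESeq2 gave 125 and 63. Of the 23, 8 are described by name, and these calls also depended on single libraries: 0 of the lower calls were left without 4 h replicate 2, 4 h replicate 3, recovery replicate 2 or recovery replicate 3 of DMSO, 5 without DMSO recovery replicate 1, 106 without DMSO 4 h replicate 1, 1 without tryptamine 4 h replicate 2 or tryptamine recovery replicate 2, 5 without tryptamine 4 h replicate 1 and 12 without tryptamine 4 h replicate 3.

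All 8 had their highest mean at 4 h in DMSO among these 4 groups, and in 6 of them, all but the NUP98 genes, every DMSO 4 h library lay above every library of the other 3 groups. The 8 were chosen by a difference computed from the same libraries. That choice favours a high DMSO 4 h level, so the pattern is no separate support. RSAD2 had 1.43, 2.10 and 2.36 CPM in DMSO recovery against 6.20, 11.5 and 11.3 CPM in DMSO 4 h, and 2.28, 1.31 and 2.40 CPM in tryptamine recovery against 0.673, 1.30 and 0.906 CPM in tryptamine 4 h. The DMSO change minus the tryptamine change was -3.35 ± 0.48 on the log2 scale (SE; edgeR adjusted p = 0.0223).

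The synoviolin gene had 142, 114 and 87.0 CPM in tryptamine recovery against 125, 126 and 116 CPM in tryptamine 4 h, with a difference of changes of -2.84 ± 0.43 (SE; edgeR adjusted p = 0.0238). CUL9 had 19.2, 22.5 and 14.1 CPM in tryptamine recovery against 13.8, 21.1 and 18.5 CPM in tryptamine 4 h, with -2.29 (edgeR adjusted p = 0.0448). INVS, inversin, a cilium-base protein that steers Wnt signals, had 12.1, 10.8 and 11.9 CPM in DMSO recovery against 33.1, 24.8 and 24.7 CPM in DMSO 4 h, and 12.9, 13.4 and 15.0 CPM in tryptamine recovery against 14.5, 14.9 and 16.2 CPM in tryptamine 4 h. Its difference of changes was the smallest of the 8, at -1.10 (edgeR adjusted p = 0.0448). The 4 others were both NUP98 genes at -1.88 and -1.79, RNF213 c94017-g1 at -3.54 and IFIH1 c93646-g1 at -1.52.

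**Figure D5:**
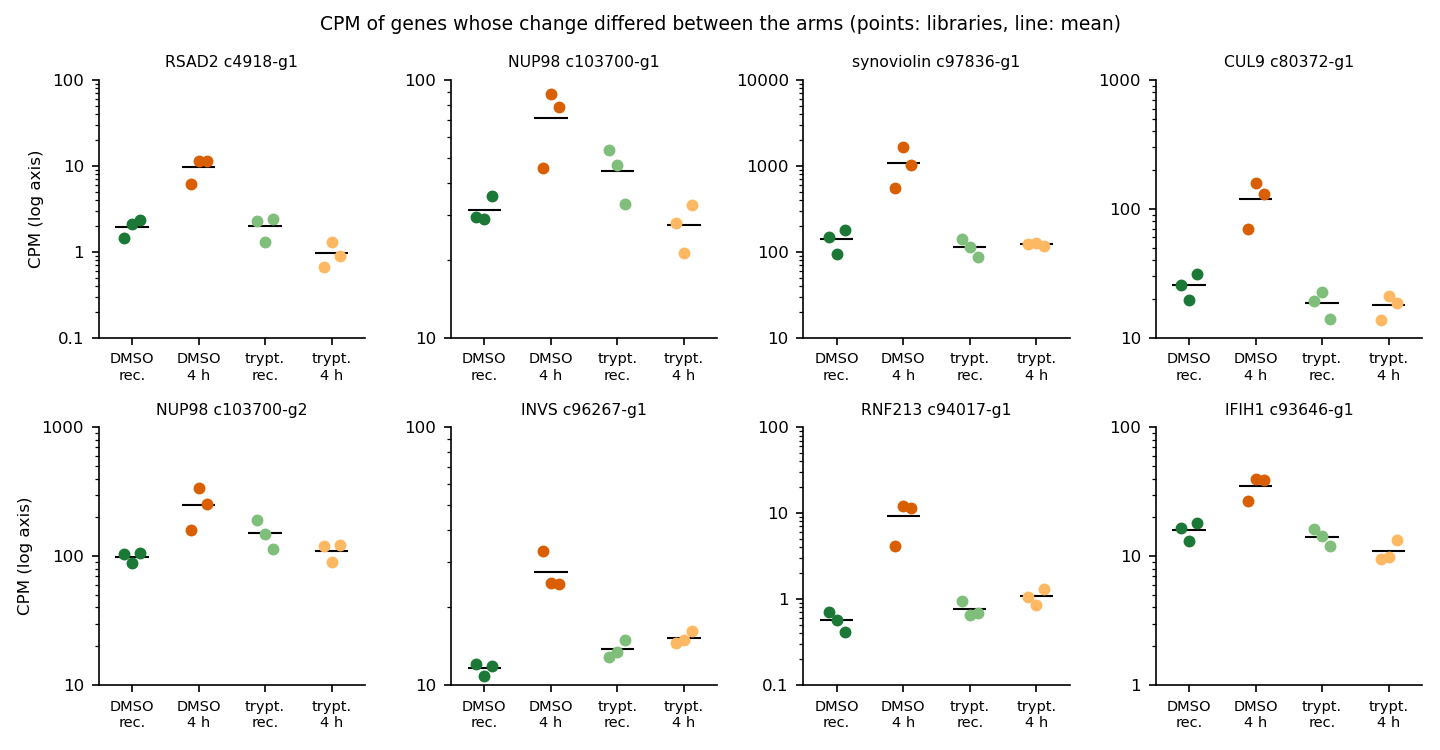
CPM on a log axis in DMSO recovery, DMSO 4 h, tryptamine (trypt.) recovery and tryptamine 4 h libraries (points) with the mean (line) for 8 genes whose change differed between the arms. In each panel the DMSO 4 h libraries lie above those of the other 3 groups, apart from the NUP98 genes, whose lowest DMSO 4 h library is within the range of tryptamine recovery. The choice of genes by the difference of changes favours high DMSO 4 h levels.

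Other genes passed in both arms, in the same direction. GUCY1B3 changed by -1.01 in DMSO and by -0.94 in tryptamine sponges, BAK1 c95892-g1 by -0.99 and -1.02, the GABA-B receptor gene c104641-g1 by -1.75 and -1.50, the tektin gene by 1.55 and 1.62 and ADCY9 by 1.12 and 1.19. Their differences of changes, DMSO minus tryptamine, had standard errors of 0.25, 0.28, 0.33, 0.41 and 0.43, which limits the size of difference that could be detected. For the ribosome assembly list the median was -0.40 in DMSO and 0.26 in tryptamine sponges, where 0 members fell and 1 rose; for mitochondrial ribosomal proteins it was -0.33 in DMSO and 0.07 in tryptamine sponges, with 1 fall. Cell cycle genes rose in both arms, 12 of 117 in DMSO and 20 of 117 in tryptamine sponges, with 0 falls in either. Over all genes 2.54% rose in DMSO and 1.40% in tryptamine sponges. The difference between the arms was tested for single genes, not for lists.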

How the data were processed

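PolyA RNA of whole sponges was sequenced in 18 libraries, 3 in each of 6 groups. Per the file headers, the deposited counts are whole read pairs per gene of an assembled Spongilla transcriptome, made by the authors with featureCounts 2.1.1, with both ends mapped, chimeric pairs left out, no strand setting and no counting of multi-mapped reads. Alignment was with STAR, per the submitters' processing notes. Reads of near-identical copies and of overlapping genes therefore cannot be assigned with certainty. The table holds 39562 genes, 4925 of them without a count.

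All 18 libraries were fitted with edgeR 4.0.16 (R 4.3.3): filterByExpr, which kept 24125 genes, TMM scaling, robust quasi-likelihood dispersions with 12 residual degrees of freedom (biological coefficient of variation 21.0%), 1 contrast per comparison and Benjamini-Hochberg adjustment over all tested genes. CPM are counts over TMM-scaled library sizes; means carry the SD over 3 libraries. A count of 3 stood for 0.177 to 0.283 CPM, and such floors cover counting error only. Pairs of libraries within a group differed beyond sampling noise (chi-square over degrees of freedom of 9.42 to 56.8), so none were copies. The scripts were tested on simulated data.

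Genes named by rule (102) had an adjusted p under 0.05, a mean of at least 20 counts, groups that did not overlap and a usable name: the 12 largest rises and falls and the 2 of smallest p from each list and direction, and of the interaction the 3 of smallest p. Other genes in the text are further called list members, family members or interaction genes, picked after their values were seen. Some genes are not reported here. The lists and the comparison were chosen with earlier results of these data known, and some list patterns were trimmed after values were seen. Alternatives were DESeq2 1.42.0, limma-voom (limma 3.58.1), median-of-ratios scaling, filters, thresholds on fold, a length trend, the 6 libraries alone, the replicate block and leaving out each library.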

Additional observations from a re-analysis of the deposited data

Results flagged for a closer look

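The change between recovery and 4 h differed between DMSO and tryptamine sponges for 23 genes in the test of the difference itself (edgeR adjusted p under 0.05), all with the DMSO change the lower. The DMSO change minus the tryptamine change, on the log2 scale, was -3.35 for RSAD2, -2.84 for the synoviolin gene, -2.29 for CUL9, -1.88 and -1.79 for the NUP98 genes c103700-g1 and c103700-g2, -1.10 for INVS, -3.54 for RNF213 c94017-g1 and -1.52 for IFIH1 c93646-g1. The other genes are not named here. None of the 23 calls was left without DMSO 4 h replicate 2 or 3 or DMSO recovery replicate 2 or 3.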

How the results depend on the processing

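The 612 rises and 1044 falls kept within 1.5 times under DESeq2, limma-voom, median-of-ratios scaling, both filters, non-robust dispersions, the length trend and a fit of the 6 libraries. Tests against a fold of 1.2 gave 248 rises and 684 falls, and against a fold of 1.5 gave 31 and 301. Leaving out 1 library gave 172 to 521 rises and 509 to 1058 falls. In tryptamine sponges the 337 rises became 187 without a filter and 34 to 517 without 1 library, and the 832 falls became 1420 with DESeq2 and 116 to 1284 without 1 library. For the difference of changes, the 0 higher calls became 63 with DESeq2, 2 without a filter and 0 to 41 without 1 library, and the 23 lower calls became 125 with DESeq2 and 0 to 106 without 1 library. The causes of these shifts were not tested. The list of RNA sensing genes without those named RNF213, an alternative chosen after seeing the data, had 5 falls, and ubiquitin ligases had 8.

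Replicate numbers were shared between groups, and the labels do not say whether a number marks a shared culture or batch: deviations of same-numbered recovery and 4 h libraries correlated at -0.161, 0.0430 and 0.0612 in DMSO and 0.0585, 0.125 and 0.140 in tryptamine sponges. With the replicate block, 1087 genes rose and 1516 fell in DMSO, 775 rose and 1272 fell in tryptamine sponges, and the difference of changes gave 6 higher and 33 lower.

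Of the 102 genes named by rule, 0 reversed in any of 17 alternatives and 27 kept their call in all of them. Against a fold of 1.5, 75 lost it. Without some single library 58 lost it, 55 without DMSO 4 h replicate 2 and 38 without DMSO recovery replicate 1. DESeq2 and the replicate block lost 0 and limma-voom 5. Depth limits genes near the floor of 3 counts, such as the short RNF213 sequences, whose fold changes depend on few reads.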
